A study of Mus musculus with 6 samples.

Results

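The miRNAs described here are those associated with the cells of the blood vessel wall: mmu-miR-126a-3p and mmu-miR-126a-5p of endothelium, mmu-miR-143-3p, mmu-miR-145a-5p and mmu-miR-145a-3p of smooth muscle and pericytes (the mural cells), mmu-miR-10a-5p and mmu-miR-10b-5p of endothelium, and mmu-miR-199a-3p, mmu-miR-199a-5p and mmu-miR-214-3p of mesenchyme (mmu, the prefix for mouse, is left off below). These 10 members were chosen by mature name from a deposited table of 1926 miRNA features, and each had a row that was above 0 in at least 1 library. miR-199a-3p shared its row with miR-199b-3p. Small RNA had been sequenced from extracellular vesicles, the membrane particles that cells release, isolated from mouse brain (brain-derived extracellular vesicles, BDEVs). The SE-BDEV group held 3 libraries from mice that had been through status epilepticus, a prolonged seizure, and the CON-BDEV group held 3 libraries from matched control mice. All titles give day 10. The sources used here do not give the day's starting point, the way seizures were induced, or the mice's strain, age and sex. Separate animals are not stated for the libraries within a group. The p-values therefore cover library-to-library spread, which may be technical.

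A miRNA is cut from a hairpin precursor that can yield a mature strand from each side, named the 5p and 3p arms. The mature strand guides Argonaute to messenger RNAs chiefly through its seed, the bases from position 2 to position 8. miR-126 is carried within the endothelial gene Egfl7 and is known for sustaining VEGF signalling by repressing Spred1 and Pik3r2. miR-143 and miR-145 come from neighbouring hairpins and are known for maintaining the contractile state of vascular smooth muscle. The miR-10 hairpins lie in the Hox gene clusters, and Mir199a-2, one of the miR-199a hairpins, is transcribed together with Mir214 from the non-coding gene Dnm3os in mesenchymal cells.

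The mature sequences show which members could compete for the same targets, and which a short read can hardly tell apart. Sequences of 6 of the 10 members are given here from RefSeq (GRCm38.p6), from a lookup that did not cover all chromosomes. Those of miR-126a-5p, miR-143-3p, miR-145a-5p and miR-145a-3p are not given, and they may still be in RefSeq. They are written 5′ to 3′ with the seed in capitals.
miR-126a-3p: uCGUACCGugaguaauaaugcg
miR-10a-5p: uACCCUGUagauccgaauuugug
miR-10b-5p: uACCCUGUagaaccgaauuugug
miR-199a-3p: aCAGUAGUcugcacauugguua
miR-199a-5p: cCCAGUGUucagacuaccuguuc
miR-214-3p: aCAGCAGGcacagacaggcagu
These 6 members carried 5 different seeds. miR-10a-5p and miR-10b-5p shared theirs and differed by 1 base in 23, U12A, counted from the 5′ end with the base of miR-10a-5p first. A read with an error at that base could pass from one to the other, and the sources used here do not give how reads were assigned. The miR-199a-3p and miR-199b-3p sequences had 0 differences over 22 bases, so their merged row cannot be split.

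In RefSeq (GRCm38.p6) miR-126a-3p lies on the plus strand at chr2:26591402-26591423, and the Mir126a hairpin overlaps an exon of an Egfl7 transcript on the same strand in GENCODE M21 (GRCm38). miR-10a-5p lies on the plus strand at chr11:96317186-96317208, outside any other annotated gene and 993 bases from Hoxb4. miR-10b-5p lies on the plus strand at chr2:74726074-74726096, in an intron of Hoxd3 and Hoxd4 transcripts. miR-199a-3p is encoded at 2 places, on the minus strand at chr9:21496498-21496519 opposite to an intron of Dnm2 and on the plus strand at chr1:162217883-162217904 in an exon of Dnm3os. The second of these hairpins lies 5445 bases from that of miR-214-3p (plus strand, chr1:162223438-162223459), which is also in an exon of Dnm3os.

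The RPM total of a library stood for 4996073 to 9391887 reads in SE-BDEV and 4400167 to 8147118 reads in CON-BDEV. This was inferred from the step between low values of the table, and it need not be all reads sequenced. Values are the deposited RPM (reads scaled to a fixed library total), and a count of 3 reads, the floor used here, corresponded to 0.319 to 0.682 RPM depending on the library, for counting error only. Neuronal miR-124-3p stood at 6654 to 9540 RPM in SE-BDEV and 7689 to 9134 RPM in CON-BDEV. Of the red blood cell miRNAs, miR-144-3p and miR-451a had a listed 0 in each of the 6 libraries. The third, the miR-486a-5p row, was at 102 to 111 RPM in SE-BDEV and 83.6 to 198.9 RPM in CON-BDEV.

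The vessel wall miRNAs together made up under 1% of the vesicle miRNA and were mostly miR-126a. Their summed level was 5971, 5006 and 7655 RPM in SE-BDEV 1, 2 and 3, against 3625, 4377 and 5434 RPM in CON-BDEV 1, 2 and 3. The lowest SE-BDEV library lay below the highest CON-BDEV library, so the groups overlapped. The sums averaged 0.621% ± 0.134 of RPM in SE-BDEV and 0.448% ± 0.0909 in CON-BDEV (SD, n = 3 each). miR-126a-3p alone gave 71.4% to 73.3% of the sum in SE-BDEV and 70.9% to 74.5% in CON-BDEV. miR-143-3p gave 16.5% to 18.3% in SE-BDEV and 15.6% to 20.7% in CON-BDEV. The 7 members other than these and miR-126a-5p gave 0.643% to 1.29% in SE-BDEV and 0.819% to 1.27% in CON-BDEV. In pooled vesicle RNA, the number of vesicles that a cell type contributes and the miRNA that each holds cannot be told apart.

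**Figure D1:**
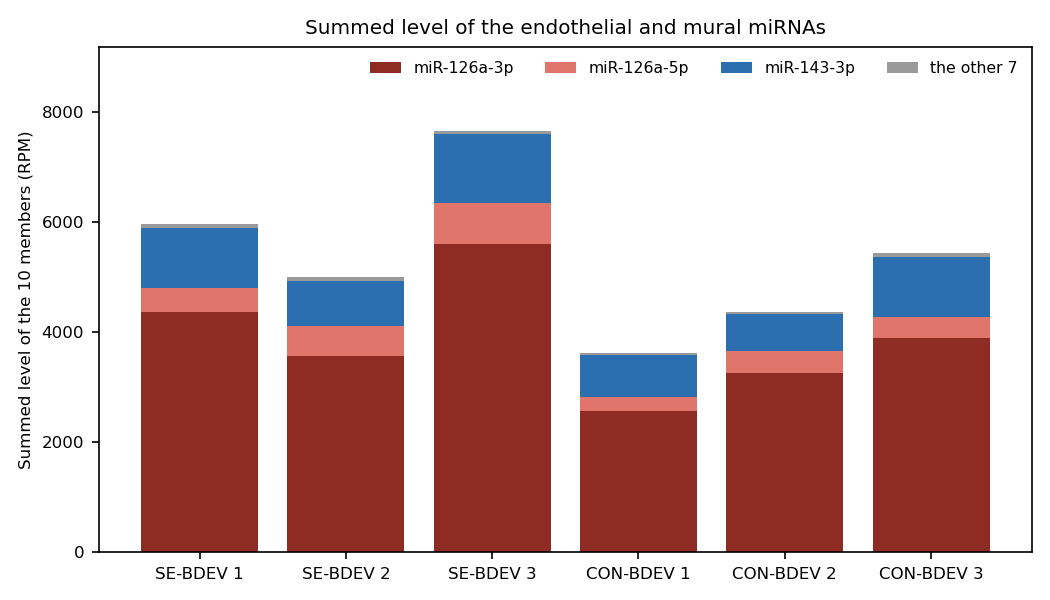
Summed level in RPM of the 10 endothelial and mural miRNAs in each library, stacked by member, with the 3 SE-BDEV libraries left and the 3 CON-BDEV libraries right. miR-126a-3p fills most of each bar, SE-BDEV 3 is highest at 7655 RPM and CON-BDEV 1 lowest at 3625 RPM.

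miR-126a-3p, the main endothelial arm, was the most abundant member in every library, at rank 22 to 25 among all features in SE-BDEV and rank 24 to 27 in CON-BDEV. Its level was 4362, 3572 and 5614 RPM in SE-BDEV 1, 2 and 3, against 2571, 3259 and 3893 RPM in CON-BDEV 1, 2 and 3. The middle and top SE-BDEV libraries lay above all controls, but SE-BDEV 2 lay below CON-BDEV 3. The mean was 4516 ± 1030 RPM in SE-BDEV and 3241 ± 661 RPM in CON-BDEV (SD, n = 3 each), a log2 difference of 0.47 ± 0.25 on the log2(RPM + 1) scale (moderated SE, limma adjusted p = 0.438). The 95% interval of this difference ran from -0.0560 to 1.00, so it includes no difference as well as a 2.01-fold higher level.

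miR-126a-5p, the less abundant arm of the same hairpin, separated the groups. It was at 441, 544 and 728 RPM in SE-BDEV 1, 2 and 3, against 256, 399 and 383 RPM in CON-BDEV 1, 2 and 3. All SE-BDEV libraries lay above all CON-BDEV libraries, which was so in the same direction for 10.7% of the 308 miRNAs tested. The mean was 571 ± 145 RPM in SE-BDEV and 346 ± 78.1 RPM in CON-BDEV (SD, n = 3 each). The log2 difference of 0.72 ± 0.31 (moderated SE, 95% interval 0.0467 to 1.39) had an unadjusted limma p of 0.0379 and an adjusted p of 0.438, and it did not pass. In the authors' deposited table the arm had a log2 fold change of 0.63 with a standard error of 0.31 (DESeq2 p = 0.0442, adjusted p = 0.541).

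A ratio of arms within a library does not depend on how the library was scaled. Reads of miR-126a-3p outnumbered those of miR-126a-5p by 9.89, 6.57 and 7.71 to 1 in SE-BDEV 1, 2 and 3, and by 10.04, 8.17 and 10.2 to 1 in CON-BDEV 1, 2 and 3. SE-BDEV 1 lay among the controls, and the other two SE-BDEV libraries lay below all of them. The ratio averaged 8.05 ± 1.69 in SE-BDEV and 9.46 ± 1.12 in CON-BDEV (SD, n = 3 each), a log2 difference of -0.25 that was within the spread (exact permutation p = 0.2, two-sided, smallest possible 0.1; adjusted p = 0.4 over the 2 ratios tested). It was -0.11 without SE-BDEV 2 and -0.40 without SE-BDEV 1. The antisense hairpin Mir126b, on the opposite strand at the same place, gave almost nothing: miR-126b-3p was listed at 0 in all 6 libraries and miR-126b-5p above 0 in CON-BDEV 3 alone, at 0.912 RPM.

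miR-143-3p, the main smooth muscle and pericyte member, stood second in level. It was at 1094, 825 and 1263 RPM in SE-BDEV 1, 2 and 3, against 752, 683 and 1089 RPM in CON-BDEV 1, 2 and 3. CON-BDEV 3 was close to SE-BDEV 1 and lay above SE-BDEV 2, so the groups overlapped. The mean was 1061 ± 221 RPM in SE-BDEV and 841 ± 217 RPM in CON-BDEV (SD, n = 3 each), with a log2 difference of 0.34 ± 0.29 (moderated SE, 95% interval -0.28 to 0.96, limma adjusted p = 0.678). The other arm, miR-143-5p, was listed at 0 in all libraries.

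miR-145a-5p, from the neighbouring hairpin, was far less abundant, and the direction of its difference depended on single libraries. Its level was 32.7, 23.2 and 15.0 RPM in SE-BDEV 1, 2 and 3, against 18.6, 14.5 and 39.8 RPM in CON-BDEV 1, 2 and 3. The highest value was that of a control library, and the lowest of each group were close to each other. The log2 difference was 0.0231 ± 0.41 (moderated SE, 95% interval -0.87 to 0.92, limma adjusted p = 0.975), and it was -0.0435 with median-of-ratios scaling. Without CON-BDEV 3, the library that set the top value, it was 0.43, and without CON-BDEV 2 it was -0.27. Without both libraries numbered 3 it was 0.71 (limma adjusted p = 0.573). Its 3p arm was at 2.45, 3.20 and 3.56 RPM in SE-BDEV 1, 2 and 3, which are 23, 16 and 24 reads. In CON-BDEV it was at 2.33 RPM in library 2, or 19 reads, and listed at 0 in libraries 1 and 3. The lowest SE-BDEV value exceeded the highest CON-BDEV value, as for 7.35% of the 803 features above 0, but SE-BDEV 1 and CON-BDEV 2 were close. In a fit with no filter its log2 difference was 1.44 ± 0.67 (moderated SE, limma adjusted p = 0.753).

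miR-143-3p exceeded miR-145a-5p by 33.5, 35.6 and 84.4 to 1 in SE-BDEV 1, 2 and 3, and by 40.4, 47.2 and 27.3 to 1 in CON-BDEV 1, 2 and 3. The wide range in SE-BDEV came from library 3, where miR-143-3p was highest and miR-145a-5p lowest of the group. The log2 difference of 0.32 was within the spread (exact permutation p = 0.7, two-sided, smallest possible 0.1; adjusted p = 0.7 over the 2 ratios tested), and without SE-BDEV 3 it was -0.11.

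The 2 miR-10 members, which share a seed, stood at different levels, and neither passed. miR-10a-5p was at 18.8, 18.8 and 9.33 RPM in SE-BDEV 1, 2 and 3, against 10.5, 4.91 and 9.88 RPM in CON-BDEV 1, 2 and 3. SE-BDEV 1 and 2 lay above all controls, while SE-BDEV 3 lay below CON-BDEV 1 and 3. The mean was 15.7 ± 5.48 RPM in SE-BDEV and 8.41 ± 3.05 RPM in CON-BDEV (SD, n = 3 each), so it passed the filter of a mean of 10 RPM only through the SE-BDEV libraries. The log2 difference was 0.82 ± 0.45 (moderated SE, 95% interval -0.16 to 1.80, limma adjusted p = 0.459). In the authors' deposited table its log2 fold change was 0.88 (DESeq2 adjusted p = 0.658).

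miR-10b-5p rested on a handful of reads. It was at 0.426 RPM in SE-BDEV 1 (4 reads), listed at 0 in SE-BDEV 2 and at 1.04 RPM in SE-BDEV 3 (7 reads), against 2.50, 1.23 and 1.06 RPM in CON-BDEV 1, 2 and 3 (11, 10 and 7 reads). All SE-BDEV values lay below all CON-BDEV values, as for 3.11% of the 803 features above 0, though SE-BDEV 3 and CON-BDEV 3 both had 7 reads. With no filter the log2 difference was -0.82 ± 0.64 (moderated SE, limma adjusted p = 0.753), and in the authors' deposited table it was -1.80 (DESeq2 adjusted p = 0.815). The ratio of miR-10b-5p to miR-10a-5p was 0.0226 in SE-BDEV 1 and 0.111 in SE-BDEV 3, and 0.239, 0.25 and 0.108 in CON-BDEV 1, 2 and 3. SE-BDEV 2 had no value, so this ratio was not tested.

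The mesenchymal members were low. The row of miR-199a-3p, merged with miR-199b-3p, was at 16.1, 18.01 and 18.2 RPM in SE-BDEV 1, 2 and 3, against 11.1, 12.9 and 15.4 RPM in CON-BDEV 1, 2 and 3. All SE-BDEV libraries lay above all CON-BDEV libraries, as for 10.7% of the 308 miRNAs tested, and the gap between SE-BDEV 1 and CON-BDEV 3 was small. The mean was 17.4 ± 1.18 RPM in SE-BDEV and 13.1 ± 2.12 RPM in CON-BDEV (SD, n = 3 each), a log2 difference of 0.39 ± 0.32 (moderated SE, 95% interval -0.31 to 1.10, limma adjusted p = 0.678). In the authors' deposited table it was 0.33 (DESeq2 adjusted p = 0.897).

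miR-199a-5p and miR-214-3p were near the floor. miR-199a-5p was at 0.958 and 1.04 RPM in SE-BDEV 1 and 3 and listed at 0 in SE-BDEV 2, against 1.67 RPM in CON-BDEV 3 and 0 in CON-BDEV 1 and 2. miR-214-3p was at 1.92, 1.40 and 1.04 RPM in SE-BDEV 1, 2 and 3, against 2.27 RPM in CON-BDEV 1, 1.37 RPM in CON-BDEV 3 and a listed 0 in CON-BDEV 2. None of these values rested on more than 18 reads, and the groups overlapped for both. No difference was detectable at this depth, with log2 differences of 0.19 ± 0.62 for miR-199a-5p and 0.29 ± 0.67 for miR-214-3p in a fit with no filter (moderated SE, limma adjusted p = 0.943 and 0.926). The 3p arm of miR-199a exceeded the 5p arm by 16.8 to 1 in SE-BDEV 1, 17.6 to 1 in SE-BDEV 3 and 9.18 to 1 in CON-BDEV 3, the libraries in which both were above 0.

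**Figure D2:**
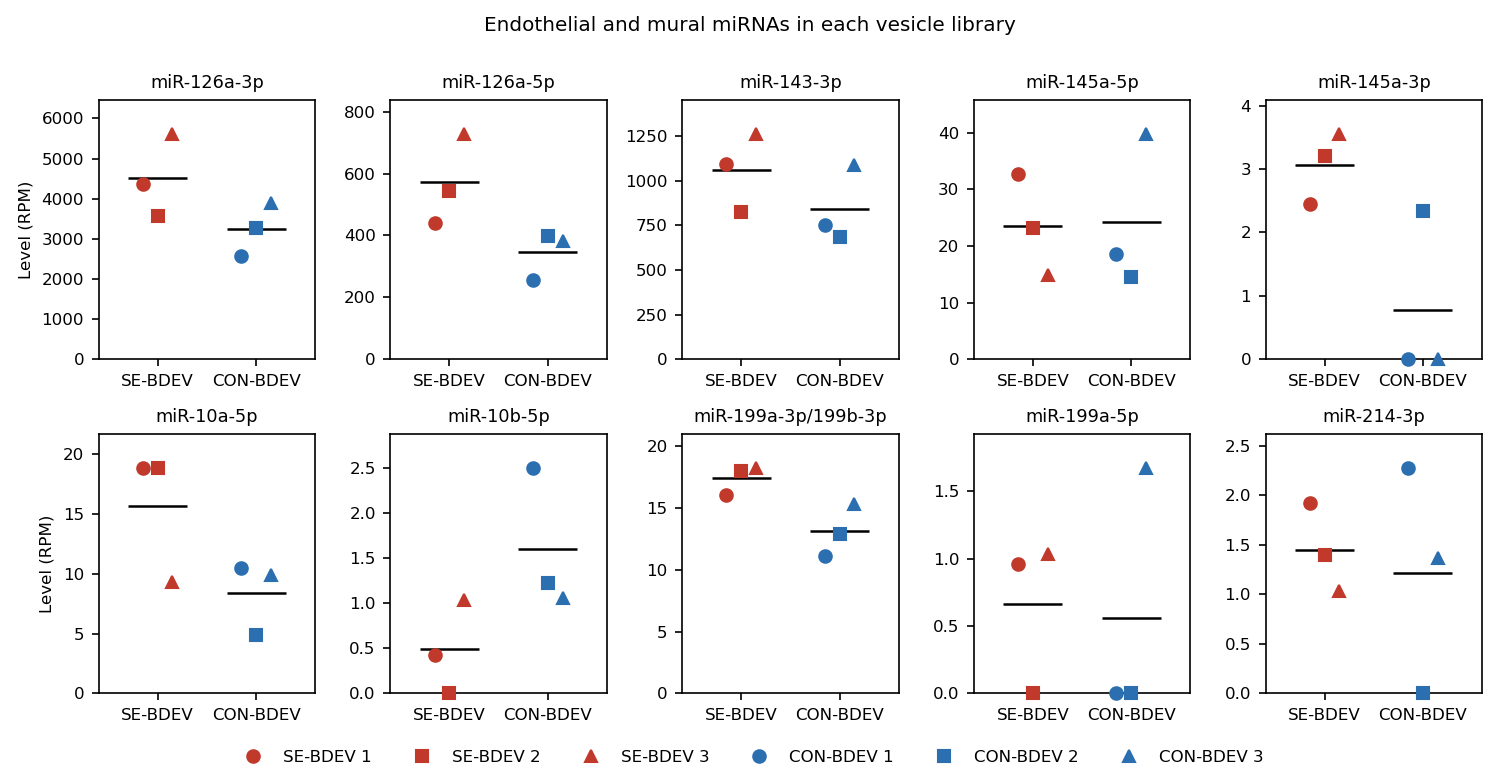
Level in RPM of each of the 10 members in every library, with SE-BDEV left and CON-BDEV right in each panel, a marker shape for each replicate number and a line at the group mean. The groups do not overlap for miR-126a-5p, miR-145a-3p and the merged miR-199a-3p row (higher in SE-BDEV) or for miR-10b-5p (lower). Of the 803 features above 0, 7.35% were higher and 3.11% lower without overlap. Axes start at 0 and differ between panels.

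By level, miR-126a-3p, miR-143-3p and miR-126a-5p kept this order in all libraries and their ranges did not overlap within either group. Below them miR-145a-5p, the miR-199a-3p row and miR-10a-5p averaged 23.6, 17.4 and 15.7 RPM in SE-BDEV and 24.3, 13.1 and 8.41 RPM in CON-BDEV. Neighbours in this lower order did not differ beyond their spread in SE-BDEV, where in library 3 the miR-199a-3p row was above miR-145a-5p. In CON-BDEV the miR-199a-3p row lay above miR-10a-5p without overlap. The last members, miR-145a-3p, miR-214-3p, miR-10b-5p and miR-199a-5p, averaged under 4 RPM in both groups.

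No vessel wall miRNA passed in the comparison of SE-BDEV with CON-BDEV. The test was limma across the 308 miRNAs whose mean reached 10 RPM, with a Benjamini-Hochberg adjusted p under 0.05 as the threshold, and 6 of the 10 members were tested. By this rule 0 of the 6 passed, where 0.974% of tested miRNAs did, and 1 of the 6, miR-126a-5p, had an unadjusted p under 0.05, where 10.4% did in either direction and 8.12% with the higher level in SE-BDEV. Groups did not overlap for 2 of the 6, both higher in SE-BDEV, where 10.7% of tested miRNAs were so and 5.52% were lower without overlap. In the deposited table of the authors, 0 of the 9 members with an adjusted p passed by DESeq2, where 1.12% of its miRNAs did, and 1 of 10 had an unadjusted p under 0.05, where 6.52% did. The 6 tested members had a median log2 difference of 0.43 and 6 were above 0, against a median of 0.0606 and 57.5% above 0 over all tested miRNAs. This count includes miR-10a-5p, which the filter kept only through its SE-BDEV level, so a positive difference was favoured for it. With no filter, 9 of the 10 members were above 0 with a median of 0.37, against 56.3% and a median of 0.0725 over 803 features. Under a scaling total that omitted the 10 top miRNAs, 46.8% of tested miRNAs and 5 of the 6 members were above 0. Set against the median of all tested miRNAs, miR-126a-5p was 0.66 higher, miR-126a-3p 0.41 and miR-10a-5p 0.76, while miR-145a-5p was at -0.0375.

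**Figure D3:**
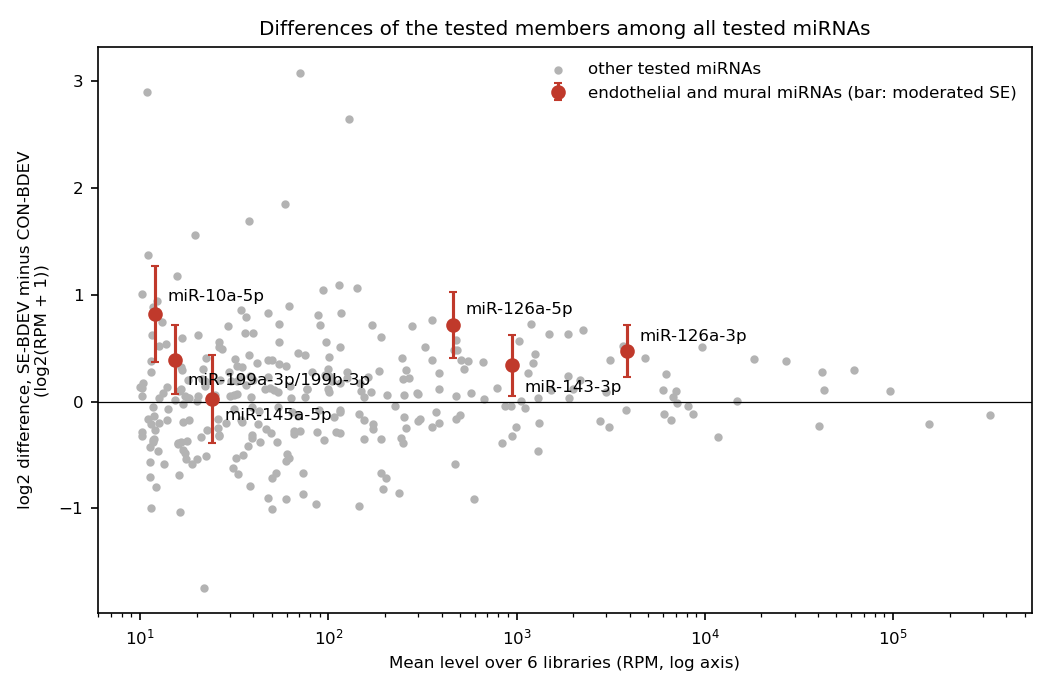
The log2 difference between SE-BDEV and CON-BDEV on the log2(RPM + 1) scale against the mean level over the 6 libraries (log axis) for the 308 tested miRNAs, with the 6 tested members in red and bars for the moderated standard error. The members lie between 0.0231 and 0.82, inside the cloud of the other miRNAs at their level.

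Single libraries moved the sizes. CON-BDEV 1 had the lowest miR-126a-3p and miR-126a-5p of all libraries, and without it their log2 differences were 0.32 and 0.52. SE-BDEV 3 had the highest, and without it they were 0.30 and 0.53. Scaling also moved the size for miR-126a-3p. Its log2 difference was 0.24 with quantile normalization and 0.40 with median-of-ratios scaling. For miR-143-3p the difference ranged from 0.21 without SE-BDEV 3 to 0.54 without CON-BDEV 3, and for miR-10a-5p from 0.52 without CON-BDEV 2 to 1.13 without SE-BDEV 3. None of these runs brought a member past the threshold.

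**Figure D4:**
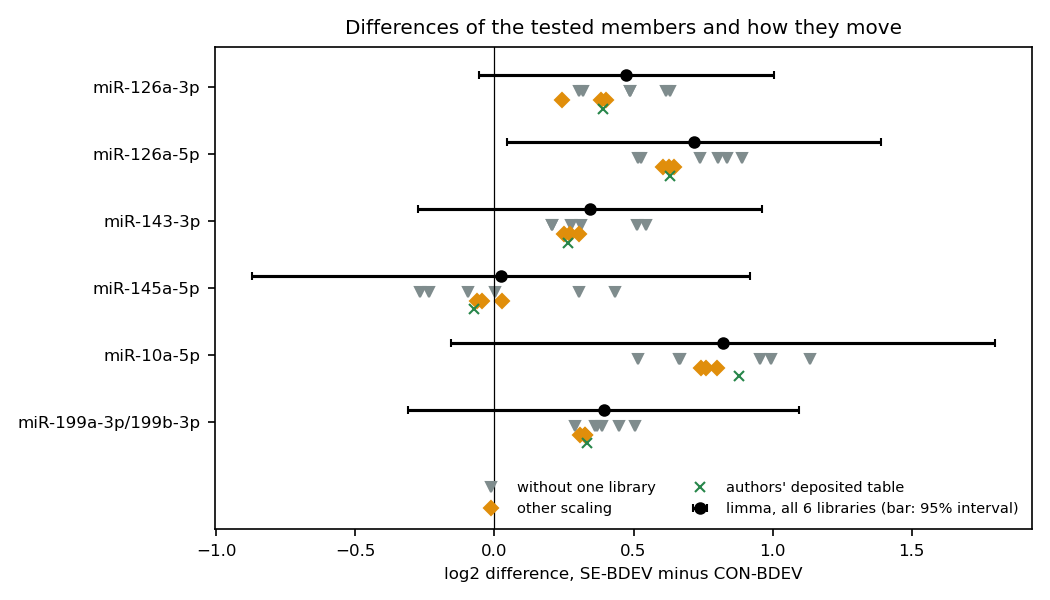
The log2 difference of each tested member between SE-BDEV and CON-BDEV, with the fit to all 6 libraries and its 95% interval in black, fits without one library as grey triangles, other scalings as orange diamonds and the authors' deposited value as a green cross. The points of miR-145a-5p fall on both sides of 0, and the points of the other 5 members lie above 0 in all of these fits.

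For the 3 members compared, the nearest profile was that of a miRNA that is not a member. Likeness was the root-mean-square difference between log2(RPM + 1) profiles over the 6 libraries, each centred on its own mean, and it is a description of 6 libraries scaled in the same way, which differ in depth. The nearest of 307 miRNAs to miR-126a-3p was miR-26a-5p at 0.0457, followed by miR-22-3p at 0.10 and let-7i-5p at 0.10, against a median of 0.46. miR-26a-5p was at 19521, 16931 and 26278 RPM in SE-BDEV 1, 2 and 3, against 12681, 15915 and 18678 RPM in CON-BDEV 1, 2 and 3. Its own partner arm miR-126a-5p stood at rank 42 (0.23) and miR-143-3p at rank 12 (0.17). For miR-143-3p the nearest were miR-221-3p, miR-467c-5p and miR-22-3p (0.12 to 0.13), with the cluster neighbour miR-145a-5p at rank 202 (0.50). Of these, miR-221-3p is on the list of other vascular miRNAs described next. For the miR-199a-3p row they were let-7g-5p, miR-98-5p and the merged miR-28a-5p/28c row (0.0818 to 0.11).

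A list of 21 other vascular miRNAs held further arms and paralogues of these hairpins and miRNAs described in vessels or in angiogenesis. Of these, 20 had rows of their own and 12 were tested. None passed by limma, and none had an unadjusted p under 0.05, and in the authors' deposited table none had a p under 0.05 either. Of the 12, 9 had a log2 difference above 0, with a median of 0.11, where 57.5% of all tested miRNAs were above 0. Under the scaling total that omitted the 10 top miRNAs it was 7 of 12, with a median of 0.0198. The median was 0.0157 without CON-BDEV 1, 0.0612 without SE-BDEV 3, 0.23 without CON-BDEV 3 and 0.24 without SE-BDEV 2. The most abundant was miR-139-5p, at 6276 ± 1138 RPM in SE-BDEV and 5795 ± 817 RPM in CON-BDEV (SD, n = 3 each, log2 difference 0.11). miR-130a-3p, described as pro-angiogenic, was at 403 ± 66.6 RPM in SE-BDEV and 371 ± 57.9 RPM in CON-BDEV (SD, n = 3 each, log2 difference 0.12).

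The smallest p of that list belonged to miR-100-5p and miR-99a-5p, whose sequences are related to those of the miR-10 family. miR-100-5p was at 516, 298 and 344 RPM in SE-BDEV 1, 2 and 3, against 210, 249 and 346 RPM in CON-BDEV 1, 2 and 3, with a log2 difference of 0.51 ± 0.33 (moderated SE, limma adjusted p = 0.571). miR-99a-5p was at 699, 444 and 583 RPM in SE-BDEV 1, 2 and 3, against 369, 415 and 527 RPM in CON-BDEV 1, 2 and 3, with a log2 difference of 0.39 ± 0.29 (moderated SE, limma adjusted p = 0.661). For both the groups overlapped, and SE-BDEV 1 was the highest library.

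Markers of other cell types were set beside these values. The 6 miRNAs listed for microglia and leukocytes summed to 472 to 601 RPM in SE-BDEV and 85.2 to 119 RPM in CON-BDEV, without overlap, and 3 of the 5 tested passed. The cells that these 6 came from were not tested. The list was chosen with earlier results of these data known, so its sum and pass count are not independent of them. Its 3 that passed were the only ones to do so among the 308 miRNAs tested (0.974%). Those of oligodendrocytes summed to 198 to 296 RPM in SE-BDEV and 137 to 170 RPM in CON-BDEV, without overlap. This came from miR-338-3p, at 160 to 275 RPM in SE-BDEV and 110 to 144 RPM in CON-BDEV. miR-219a-2-3p overlapped, at 20.7 to 47.3 RPM in SE-BDEV and 26.0 to 35.7 RPM in CON-BDEV, and miR-219a-5p was listed at 0 throughout. Of the 2 tested, 0 passed (limma, with 1 of 2 under an unadjusted p of 0.05 and 0 of 2 in the authors' deposited table by adjusted p). The markers of choroid plexus and ependyma summed to 563 to 805 RPM in SE-BDEV and 319 to 731 RPM in CON-BDEV. Those of skeletal and cardiac muscle summed to 170 to 265 RPM in SE-BDEV and 139 to 184 RPM in CON-BDEV, with overlap for both lists. Within these lists none passed. The muscle miR-1a-3p had a log2 difference of 0.83 without overlap between groups, while the muscle miR-206-3p went the other way at -0.28. The ependymal miR-34c-5p had a log2 difference of 0.81 with overlap. Both miR-1a-3p and miR-34c-5p were under an unadjusted limma p of 0.05 (adjusted p = 0.438 for both). The ependymal miR-449a-5p had a log2 difference of 0.89, also without overlap (limma adjusted p = 0.438). Of all tested miRNAs, 10.7% were higher in SE-BDEV without overlap. The red blood cell miR-486a-5p row was at 102 to 111 RPM in SE-BDEV and 83.6 to 198.9 RPM in CON-BDEV. The neuronal markers summed to 15669 to 28117 RPM in SE-BDEV and 17155 to 20919 RPM in CON-BDEV. The leukocyte and platelet pair of miR-150-5p and miR-223-3p summed to 53.6 to 87.4 RPM in SE-BDEV and 66.4 to 88.5 RPM in CON-BDEV. These 2 went opposite ways. miR-150-5p had a log2 difference of -0.27, with overlap. miR-223-3p, also in the microglia and leukocyte sum, was at 4.30 to 7.21 RPM in SE-BDEV and 0 to 3.41 RPM in CON-BDEV. Of the 803 features above 0, 7.35% were higher in SE-BDEV without overlap. The part of these markers in the values of the vessel wall miRNAs was not tested.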

How the data were processed

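The authors deposited RPM values for 1926 miRNA features, and a table of their own comparison with a mean normalized signal, log2 fold changes with standard errors, p-values and adjusted p-values for 803 features, per the file headers. DESeq2 and the build mm9 are named, without versions or order, in the submitters' processing notes. A miRNeasy Micro Kit (with DNase) and a QIAseq miRNA kit were used, per the labels' protocols. The sources used here do not give the aligner, the counting tool or any use of molecular identifiers.

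In each library 100% of RPM values were whole multiples of 1 step, within 0.001 step, which gives the reads behind the RPM total. The smallest value listed was 2 reads, so the table was not taken as full counts and no count model was fitted. A listed 0 can therefore stand for 1 read.

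limma 3.58.1 (R 4.3.3, statmod 1.5.0) was fitted to log2(RPM + 1) using the trend and robust options of eBayes (two-sided), over the 308 features with a mean of 10 RPM or more, and adjusted by Benjamini-Hochberg. The log2(RPM + 1) scale understates changes of low miRNAs. The fit was tested on simulated data. Named were all members, the 4 most abundant and the 2 of smallest p among the other vascular miRNAs, and the 3 nearest profiles of 3 members. The members and lists were chosen with earlier results of these data known.

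The groups share replicate numbers, and the deviations of same-numbered libraries correlated at 0.216, 0.202 and 0.462, above the bound of 0.1 for treating numbers as pairs. Differently numbered libraries correlated at -0.41 (SE-BDEV 1 with CON-BDEV 3) to 0.336 (SE-BDEV 1 with CON-BDEV 2). Without miR-24-3p the correlations of same-numbered libraries were -0.0639, -0.0614 and -0.0806. Nothing in the labels says that the numbers are pairs.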

Additional observations from a re-analysis of the deposited data

How the results depend on the processing

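No member passed under any alternative run, and 5 of the 6 tested members kept their direction in each one that tested them. miR-145a-5p, miR-10a-5p and the miR-199a-3p row were not tested at a mean of 100 RPM or more. The unadjusted limma p of miR-126a-5p, 0.0379 in the main fit, was 0.0568 with median-of-ratios scaling and 0.0855 with quantile normalization. It was 0.0483 when the 10 most abundant miRNAs were left out of the total, and 0.0363 to 0.129 when 1 library was left out. Adjusted p ranged over the alternatives from 0.326 to 0.857 for miR-126a-3p, 0.239 to 0.782 for miR-126a-5p, 0.393 to 0.904 for miR-143-3p, 0.573 to 0.998 for miR-145a-5p, 0.401 to 0.753 for miR-10a-5p and 0.599 to 0.897 for the miR-199a-3p row. The log2 difference of miR-145a-5p, at 0.0231, turned to -0.0435 with median-of-ratios scaling, -0.0630 when the 10 most abundant miRNAs were left out of the total, and -0.0749 in the authors' deposited table, and ranged from -0.27 to 0.43 when 1 library was left out, and was 0.71 without both libraries numbered 3. The ratio of miR-126a-3p to miR-126a-5p ranged from -0.40 to -0.11 and the ratio of miR-143-3p to miR-145a-5p ranged from -0.11 to 0.55 (log2 difference) when 1 library was left out. Against 3 miRNAs called over the whole table, 1 was called among the 129 whose mean reached 100 RPM, 7 in the authors' deposited table, and 2 to 8 when 1 library was left out. With the replicate block it was 10, and 10 again without miR-24-3p (chosen after seeing the data, as was the run on miRNAs above 0 in all libraries); the block changed no call of a member or of the other vascular list. The cause of these shifts was not tested. The planned edgeR and DESeq2 fits were not run, because the table was not taken as counts. Depth limits the 4 members under 4 RPM, none above 24 reads in a library.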
